A study of Cavia porcellus with 35 samples.

Results

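B3GALT2, GARNL3, NRIP3 and ATP6AP1L are 4 of the 10949 gene symbols listed in all 4 deposited tables of RNA-sequencing counts from the prefrontal cortex (PFC) of juvenile guinea pigs. They were selected on measured values, because their counts were higher in F1 females whose mothers had received synthetic glucocorticoid (sGC) than in control F1 females, and the first 3 had also been assayed by qPCR in the study. The F1 female difference is therefore a description of how the genes were picked and carries no test here. The study also listed ATP6AP1L as differing in all 4 tables, so none of its differences is independent of how it was picked. All 4 genes were listed in every table and passed the filter on low counts in each.

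The study asked whether sGC given to pregnant guinea pigs changes transcription in the PFC of their offspring and later generations. Pregnant guinea pigs received the sGC betamethasone or saline in late gestation, and F1 and F2 males were mated with non-experimental females to give F2 and F3 offspring, so that the F2 and F3 animals descended from treated or control dams through the paternal line. RNA came from 35 animals killed on postnatal day 40, with 1 library per animal: 4 control and 4 sGC females in each of F1, F2 and F3, and 5 control and 6 sGC F1 males. F2 and F3 males were not analysed here. The punches hold a mixture of neurons and glia, so for every gene below a smaller number of cells of a type and less RNA per cell cannot be told apart.

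The 4 proteins do different jobs. B3GALT2 is a Golgi enzyme that adds galactose in a beta-1,3 linkage to N-acetylglucosamine on glycoproteins and glycolipids, and brain is among the tissues where it is known to be expressed. GARNL3 carries a domain related to those of the GTPase-activating proteins of Rap, a small GTPase of the Ras family that acts in adhesion and synaptic signalling. NRIP3 is a little-studied protein that bears the name nuclear receptor interacting protein, a family name that also covers coregulators of steroid receptors. ATP6AP1L resembles ATP6AP1, an accessory subunit of the vacuolar proton pump (V-ATPase) that acidifies lysosomes and synaptic vesicles.

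Libraries held 12819964 to 19551079 counts in females and 25697953 to 31763585 in males. The labels give the source as prefrontal cortex, whereas their protocol text names another region, the paraventricular nucleus, so the tissue was checked against markers. Cortical SLC17A7, the vesicular glutamate transporter, had group means of 429 to 1752 CPM (counts scaled to a common library size with TMM normalization). The paraventricular peptides AVP and OXT stayed at or under 3.63 CPM in every group mean and the hypothalamic factor SIM1 at or under 12.8, whereas the cortical factor TBR1, hypothalamic OTP and myelin MBP were not listed. F1 control animals 1 and 4 stood apart. The summed level of striatal neuron markers ran from 706 to 2993 CPM in F1 controls against 329 to 739 in F1 sGC females. Control animals 1 and 4 had the highest mean log2 level of that list (7.48 and 7.43, against 5.55 and 6.04 in the other F1 controls). DRD2, a dopamine receptor of striatal neurons, averaged 94.3 ± 88.3 CPM in F1 controls against 7.44 ± 11.3 in F1 sGC females (SD, n = 4 each). Striatal levels were also uneven in F3 females, with sums of 403 to 1241 CPM in controls and 263 to 575 CPM in sGC animals. F3 control animal 3 had the highest mean log2 level there (6.22, against 4.38 to 5.35 in the other F3 controls). The male table differs from the female tables in sex, in depth and in how its libraries are named. From F2 and F3 females it differs in generation as well. These cannot be told apart.

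In F1 females, the comparison that picked the genes, B3GALT2 was at 54.6, 72.8, 56.7 and 51.5 CPM in control animals 1 to 4 and at 136, 121, 87.3 and 123 CPM in sGC animals 1 to 4. Every sGC female lay above every control, with sGC animal 3 the nearest. The control mean was 58.9 ± 9.51 and the sGC mean 117 ± 20.7 CPM (SD, n = 4 each), a log2 fold change of 0.99 (SE 0.15, 95% interval 0.65 to 1.33). GARNL3 was at 66.5, 71.9, 62.0 and 62.0 CPM in controls and at 109.5, 123, 94.6 and 127 CPM in sGC females. Its controls were the tightest of the 4 genes, with a coefficient of variation of 7.13%, and the groups again did not overlap. The log2 fold change of GARNL3 was 0.79 (SE 0.10, 95% interval 0.57 to 1.01).

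NRIP3 was at 617, 636, 439 and 445 CPM in F1 control females and at 1089, 911, 960.4 and 1548 CPM in sGC females. All sGC values were above all controls and sGC animal 4 was far higher than the others. The log2 fold change of NRIP3 was 1.08 (SE 0.19, 95% interval 0.64 to 1.52). ATP6AP1L was at 101, 53.7, 51.1 and 62.0 CPM in controls and at 105, 116, 142 and 179 CPM in sGC females. Control animal 1 sat just under the lowest sGC female, and the same animal had the highest glutamatergic marker level among F1 controls (7.01 mean log2 CPM, against 5.46 to 5.90 in the others and 6.76 to 7.87 in sGC females). The log2 fold change of ATP6AP1L was 1.01 (SE 0.24, 95% interval 0.47 to 1.56). The 4 genes ranked 119, 197, 83 and 109, in the order B3GALT2, GARNL3, NRIP3 and ATP6AP1L, among 11268 genes ordered from the largest rise. Of those genes, 9.21% were called higher and 7.33% lower in sGC (edgeR quasi-likelihood test, false discovery rate, FDR, under 0.05), 12% had all sGC animals above all controls and 11.2% all below, so complete separation was common in this table. Without control animals 1 and 4 the log2 fold changes were 0.87, 0.79, 1.09 and 1.39 in the same order, an omission chosen after the striatal marker levels had been seen.

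**Figure D1:**
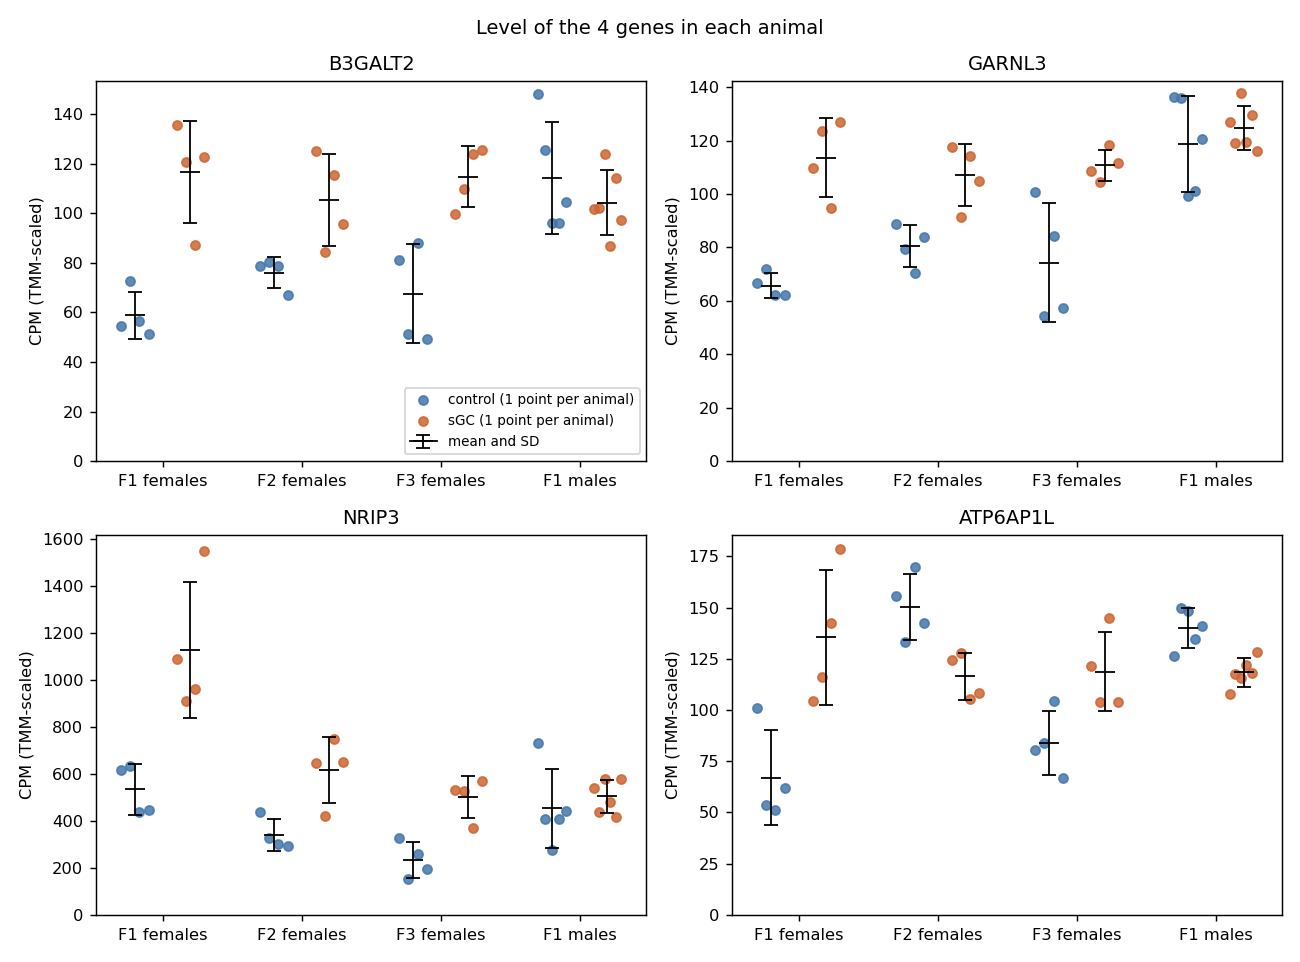
Level of B3GALT2, GARNL3, NRIP3 and ATP6AP1L in TMM-scaled CPM (linear axes from 0). Each point is 1 animal, blue for control and orange for sGC, and black bars give the mean and SD. In F1, F2 and F3 females the sGC points of B3GALT2 and GARNL3 lie above all control points, whereas ATP6AP1L lies lower in sGC animals in F2 females and higher in F1 females.

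In F2 females, 3 genes were higher on average in sGC animals and ATP6AP1L was lower, and none of the 4 passed an FDR of 0.05. B3GALT2 was at 78.7, 80.3, 78.6 and 66.9 CPM in controls and at 125, 84.4, 115 and 95.7 CPM in sGC females. The groups did not overlap, although sGC animal 2 exceeded the highest control only slightly. Its means were 76.1 ± 6.21 and 105 ± 18.5 CPM, with a log2 fold change of 0.47 (SE 0.12, 95% interval 0.21 to 0.72, FDR = 0.0838). GARNL3 was at 88.9, 79.4, 70.3 and 83.8 CPM in controls and at 118, 91.6, 114 and 105 CPM in sGC females. These groups were also separate, with sGC animal 2 again the lowest, and the log2 fold change was 0.41 (SE 0.09, 95% interval 0.21 to 0.61, FDR = 0.0642).

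NRIP3 was at 439.7, 328, 302 and 292 CPM in F2 controls and at 647, 420.1, 749 and 652 CPM in sGC females. Here 3 of 4 sGC females lay above every control, and sGC animal 2 fell below control animal 1. The log2 fold change of NRIP3 was 0.86 (SE 0.17, 95% interval 0.48 to 1.24, FDR = 0.0518). ATP6AP1L was at 156, 133, 169.8 and 143 CPM in controls and at 124, 128, 105 and 108 CPM in sGC females. Every sGC female was below every control, the opposite of the F1 order, and the log2 fold change was -0.37 (SE 0.09, 95% interval -0.57 to -0.17, FDR = 0.0808). Of all genes tested in F2 females, 0.278% of 11132 were called (0.153% higher and 0.126% lower), while 4.08% had all sGC animals above all controls and 4.02% all below. All 4 genes passed an FDR of 0.05 with edgeR's likelihood ratio test (FDR = 0.00703 for B3GALT2, 0.00335 for GARNL3, 0.000246 for NRIP3 and 0.00868 for ATP6AP1L) and with DESeq2 (0.0100, 0.00496, 0.000105 and 0.00980), and these tools called 534 and 473 genes against 31. Without sGC animal 2 all 4 also passed the quasi-likelihood test, at an FDR of 0.0117 for B3GALT2, 0.0117 for GARNL3, 0.00404 for NRIP3 and 0.0313 for ATP6AP1L, in a fit that called 487 genes, and without control animal 1 GARNL3 and NRIP3 passed (FDR = 0.0465 and 0.0268).

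In F3 females all 4 genes were higher on average in sGC animals, and NRIP3 alone passed the FDR threshold. NRIP3 was at 326, 154, 261 and 196 CPM in controls and at 533, 528, 369 and 571 CPM in sGC females. The groups did not overlap, with sGC animal 3 nearest to control animal 1. The means were 234 ± 75.4 and 500.3 ± 89.5 CPM, a log2 fold change of 1.09 (SE 0.22, 95% interval 0.60 to 1.59, FDR = 0.0498), where 1.34% of 11420 genes were called and 1.07% were called higher. This call sat on the threshold. It was kept in 1 of 8 fits that left out an animal, the one without control animal 1 (FDR = 0.00897), and was lost on leaving out any of control animals 2, 3 and 4 or sGC animals 1, 2, 3 and 4 (FDR of 0.0656 to 0.144).

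B3GALT2 was at 81.1, 51.4, 88.2 and 49.4 CPM in F3 controls and at 99.9, 109.9, 124 and 126 CPM in sGC females. The controls fell into a lower and a higher pair of animals, and all sGC values were above both pairs. Its log2 fold change was 0.76 (SE 0.18, 95% interval 0.35 to 1.18, FDR = 0.0734). GARNL3 was at 101, 54.5, 84.3 and 57.5 CPM in controls and at 109, 104, 118 and 112 CPM in sGC females, with control animals 2 and 4 low, as they were for B3GALT2. The sGC females were close together (coefficient of variation 5.28%, against 29.9% in controls), and the log2 fold change was 0.57 (SE 0.18, 95% interval 0.18 to 0.97, FDR = 0.135). Complete separation upward, seen for B3GALT2, GARNL3 and NRIP3, held for 5.95% of the genes tested in F3 females and complete separation downward for 4.35%.

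ATP6AP1L was at 80.5, 84.2, 105 and 66.7 CPM in F3 controls and at 122, 104, 145 and 104 CPM in sGC females. The groups overlapped, because control animal 3 reached the level of the lower 2 sGC females. Its log2 fold change was 0.50 (SE 0.14, 95% interval 0.18 to 0.82, FDR = 0.116). B3GALT2, GARNL3 and ATP6AP1L all passed an FDR of 0.05 with the likelihood ratio test (FDR = 0.00300, 0.0342 and 0.0239) and with DESeq2 (0.00162, 0.0263 and 0.0195), and these tools called 616 and 632 genes against 153. Without control animal 1 B3GALT2 and GARNL3 passed the quasi-likelihood test (FDR = 0.0364 and 0.0177), and without control animal 3 B3GALT2 did (FDR = 0.0495).

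In F1 males, ATP6AP1L was lower in sGC animals and the other 3 genes did not pass the test. ATP6AP1L was at 127, 149.6, 148, 135 and 141 CPM in control males, and sGC males ran from 108 through a median of 118 to 129 CPM. Of the 6 sGC males, 5 lay below every control. The means were 140.0 ± 9.68 (n = 5) and 118 ± 6.88 CPM (n = 6), a log2 fold change of -0.24 (SE 0.05, 95% interval -0.36 to -0.13, FDR = 0.0138), where 9.22% of 11524 genes were called, 3.48% lower and 5.74% higher. All sGC males lay below all control males for 2.04% of genes and above them for 4.22%, and neither held for any of the 4. The call held in all 11 fits that left out an animal (FDR of 0.00678 to 0.0363) and was lost in a single fit of all 8 groups, where the spread was shared with the female tables (FDR = 0.303).

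B3GALT2 was at 148, 125, 96.1, 96.0 and 105 CPM in control males and at 86.8 to 124 CPM, with a median of 102, in sGC males. The groups overlapped widely and the log2 fold change was -0.13 (SE 0.12, 95% interval -0.38 to 0.12, FDR = 0.552). GARNL3 was at 136, 136, 99.3, 101 and 121 CPM in control males and at 116 to 138 CPM, with a median of 123, in sGC males. Its 2 lowest controls were below every sGC male and the others among them, and the log2 fold change was 0.07 (SE 0.09, 95% interval -0.11 to 0.26, FDR = 0.650). NRIP3 was at 732, 409.9, 277, 410.0 and 444 CPM in control males and at 416 to 579 CPM, with a median of 510.5, in sGC males. Its control males spanned more than the sGC males, and the log2 fold change was 0.15 (SE 0.19, 95% interval -0.25 to 0.56, FDR = 0.675). On leaving out single animals the male log2 fold changes ran from -0.18 to -0.01 for B3GALT2 (-0.01 without control animal 1), from 0.02 to 0.13 for GARNL3 (0.02 without control animal 3 or 4) and from 0.02 to 0.39 for NRIP3 (0.02 without control animal 3 and 0.39 without control animal 1), and none passed.

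**Figure D2:**
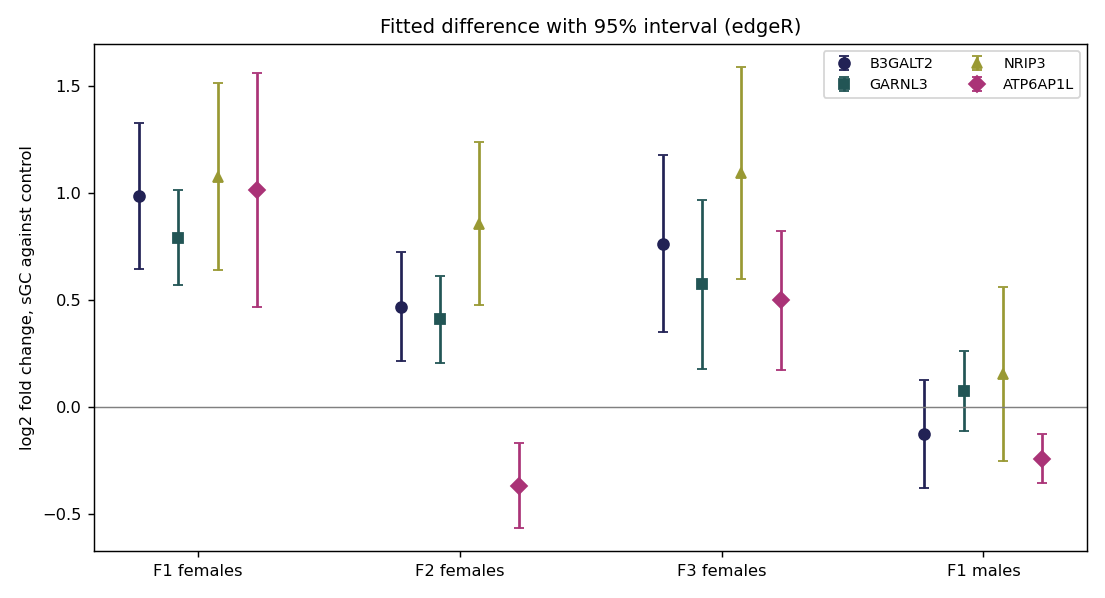
Log2 fold change of sGC against control animals for the 4 genes in each table (edgeR quasi-likelihood fit), with bars for the 95% interval. B3GALT2, GARNL3 and NRIP3 lie above 0 in the 3 female tables and near 0 in F1 males, and ATP6AP1L lies above 0 in F1 and F3 females and below 0 in F2 females and F1 males.

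Differences in the response to sGC were tested as interactions for 3 pairs of tables, with the F1 females left out because they had picked the genes. The F1 males differ from F2 and F3 females in generation as well as in sex, depth and library naming. A difference from them cannot be assigned to any of these. Between F3 females and F1 males the log2 fold change of B3GALT2 was smaller in males by -0.91 (SE 0.23, 95% interval -1.38 to -0.44, FDR = 0.0228) and that of ATP6AP1L by -0.76 (SE 0.14, 95% interval -1.06 to -0.46, FDR = 0.00559), in a comparison where 5.55% of 11369 genes passed. The difference of NRIP3 was about as large as that of B3GALT2, at -0.96 (SE 0.31, 95% interval -1.62 to -0.30, FDR = 0.0825), and that of GARNL3 was -0.52 (SE 0.20, 95% interval -0.93 to -0.11, FDR = 0.133). The B3GALT2 difference lost its call without F3 control animal 2 (-0.80, FDR = 0.0580), F3 control animal 4 (-0.79, FDR = 0.0587) or F3 sGC animal 3 (-0.88, FDR = 0.0509). The NRIP3 difference passed without F3 control animal 1 (-1.17, FDR = 0.0268) or male control animal 3 (-1.09, FDR = 0.0332), and that of GARNL3 passed without F3 control animal 1 (-0.71, FDR = 0.0131). The ATP6AP1L difference passed in all 19 such fits (FDR of 0.00130 to 0.0138).

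Between F2 and F3 females the responses of B3GALT2, GARNL3 and NRIP3 differed by 0.29 (95% interval -0.20 to 0.79), 0.16 (-0.29 to 0.62) and 0.24 (-0.41 to 0.88), with FDR of 0.660 to 0.807, which leaves room for sizeable differences either way. The response of ATP6AP1L, negative in F2 and positive in F3 females, differed by 0.87 (SE 0.18, 95% interval 0.49 to 1.25, unadjusted p = 0.000165, FDR = 0.0769). Only 0.018% of 11140 genes passed in that comparison. ATP6AP1L passed there by the likelihood ratio test (FDR = 0.00202) and by DESeq2 (FDR = 0.00115), which called 93 and 126 genes against 2. Between F2 females and F1 males no gene of 11198 passed with the quasi-likelihood test (1001 had an unadjusted p under 0.05, and the likelihood ratio test and DESeq2 called 22 and 26), a share of 0.0%. The differences were -0.60 for B3GALT2 (95% interval -0.99 to -0.21, FDR = 0.341), -0.34 for GARNL3 (-0.62 to -0.05, FDR = 0.474), -0.71 for NRIP3 (-1.31 to -0.11, FDR = 0.474) and 0.12 for ATP6AP1L (-0.09 to 0.34, FDR = 0.757).

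The RNA level of pan-neuronal markers was higher in sGC animals in F1 and F3 females, 2 tables where all 4 members were also higher on average. In F1 females the rise of the members was the selection itself. Of a list of 20 pan-neuronal markers, which include synaptic SNAP25 and cytoskeletal TUBB3, 15 were tested in F1 females and 12 were called higher in sGC, and the summed level was 12762 to 14470 CPM in controls against 17454 to 19744 CPM in sGC females. SNAP25, a protein of synaptic vesicle fusion, averaged 2424 ± 98.4 CPM in F1 controls and 3747 ± 427 CPM in F1 sGC females. In F3 females 5 of 16 were called higher and the summed level was 10423 to 12481 CPM in controls against 15214 to 15649 CPM in sGC females, without overlap. In F2 females none of 15 passed by any of the 3 tests (1 at an unadjusted p under 0.05) and the ranges overlapped, at 14844 to 16912 CPM in controls and 15114 to 18529 CPM in sGC females. In F1 males 1 of 15 was called, lower (none without control animal 2, 4 or 5 or sGC animal 1, 2, 4 or 5), and the ranges again overlapped. Called higher were 80% of the list in F1 and 31.2% in F3 females, beside 9.21% and 1.07% of all genes tested. The male call was 6.67% of the list, beside 3.48% of all genes called lower. The median log2 fold change of the list was 0.41 in F1, 0.03 in F2 and 0.35 in F3 females and -0.05 in F1 males, beside -0.03, 0.01, -0.01 and -0.00 for all genes tested. On leaving out an animal the F1 count ran from 7 to 13, with 7 without control animal 3, and it was 11 without control animals 1 and 4. The F3 count was 11 without control animal 1, 5 without control animal 3 and 0 without any other animal. Other neuronal lists went the other way in F1 and F3 females, with medians of -1.94 and -0.82 for striatal and -0.16 and -0.38 for GABAergic markers. Medians of the glutamatergic list were 1.48 and 0.45.

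Some glial and other neuronal markers were also called. In F1 females 7 of 10 striatal neuron markers, 4 of 9 astrocyte, 4 of 6 microglial and 3 of 10 GABAergic interneuron markers were called lower in sGC. So were 1 of 8 oligodendrocyte precursor and 1 of 8 endothelial markers (12.5% each). Of all genes tested in F1 females, 7.33% were called lower. The striatal count was 2 to 4 without control animal 1 or 4 or sGC animal 1, 2 or 3, the GABAergic count 1 without sGC animal 1, and the astrocyte count 0 to 2 without any animal but sGC animals 2 and 3. Without control animal 1, 6 glutamatergic, 6 oligodendrocyte and 6 oligodendrocyte precursor markers passed in either direction. In the fit of all F1 females the median log2 fold changes of these lists were 1.48, -0.72 and -0.61. Over the F1 fits that left out an animal, genes called ran from 613 to 2115, against 1864 in the full fit. The endothelial count was 1 without control animal 4, 3 without sGC animal 3 and 0 without any other animal. In F1 males 8 of 8 oligodendrocyte markers and 5 of 8 oligodendrocyte precursor markers were called higher, with summed oligodendrocyte levels of 3603 to 6837 CPM in controls and 7678 to 13137 CPM in sGC males. Of the other male lists, 1 of 8 astrocyte markers was called higher (lost without control animal 1, 2 or 3) and 2 of 11 GABAergic markers lower (0 without control animal 3 or 4 or sGC animal 1, 2, 3, 4 or 5). Of all genes tested in F1 males, 5.74% were called higher and 3.48% lower.

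In F2 females the oligodendrocyte markers had a median log2 fold change of 1.02 and summed levels of 3334 to 5166 CPM in controls against 4935 to 11596 CPM in sGC females. None of 8 passed the quasi-likelihood test, but 7 had an unadjusted p under 0.05, 7 passed the likelihood ratio test and 6 passed DESeq2. Without control animal 1 or sGC animal 2, 7 passed the quasi-likelihood test. Of the members, GARNL3 and NRIP3 passed without control animal 1, and all 4 without sGC animal 2. The fit without sGC animal 2 called 487 genes against 31, and a relation between these calls was not tested. The striatal marker DRD1, a dopamine receptor, was called higher in F2 females (1 of 7, where 0.153% of all genes tested were called higher). The striatal count was 1 without control animal 1, 2 without sGC animal 2 and 0 without any other animal. In F3 females 1 of 10 GABAergic markers was called, PVALB of parvalbumin interneurons, higher by 0.92, where 1.07% of all genes tested were called higher. The median of the GABAergic list was -0.38 and 8 of its 10 markers had a log2 fold change below 0. Of these markers 7 were lower and 2 higher at an unadjusted p under 0.05. DESeq2 and the likelihood ratio test each called 5, and 6 passed without control animal 1. No glutamatergic marker passed the quasi-likelihood test in any table, of 11, 11, 10 and 11 tested in F1, F2 and F3 females and F1 males. Of these markers 8, 4, 6 and 3 had an unadjusted p under 0.05, with 6, 2, 5 and 2 called by the likelihood ratio test and 5, 1, 5 and 2 by DESeq2. The remaining lists had no quasi-likelihood call. At most 7 markers of such a list had an unadjusted p under 0.05. This was the striatal list in F3 females, all 7 lower, with 2 likelihood ratio and 1 DESeq2 calls. All 10 striatal markers of F3 females had a log2 fold change below 0, with a median of -0.82, as all 10 had in F1 females. Among these remaining lists, at most 3 markers of a list passed either other test (oligodendrocyte precursor, F2 females). Hypothalamic and choroid plexus lists were among those without such a call, with at most 2 and 1 markers at an unadjusted p under 0.05. The part of these markers in the differences of B3GALT2, GARNL3, NRIP3 and ATP6AP1L was not tested beyond the values that follow.

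**Figure D3:**
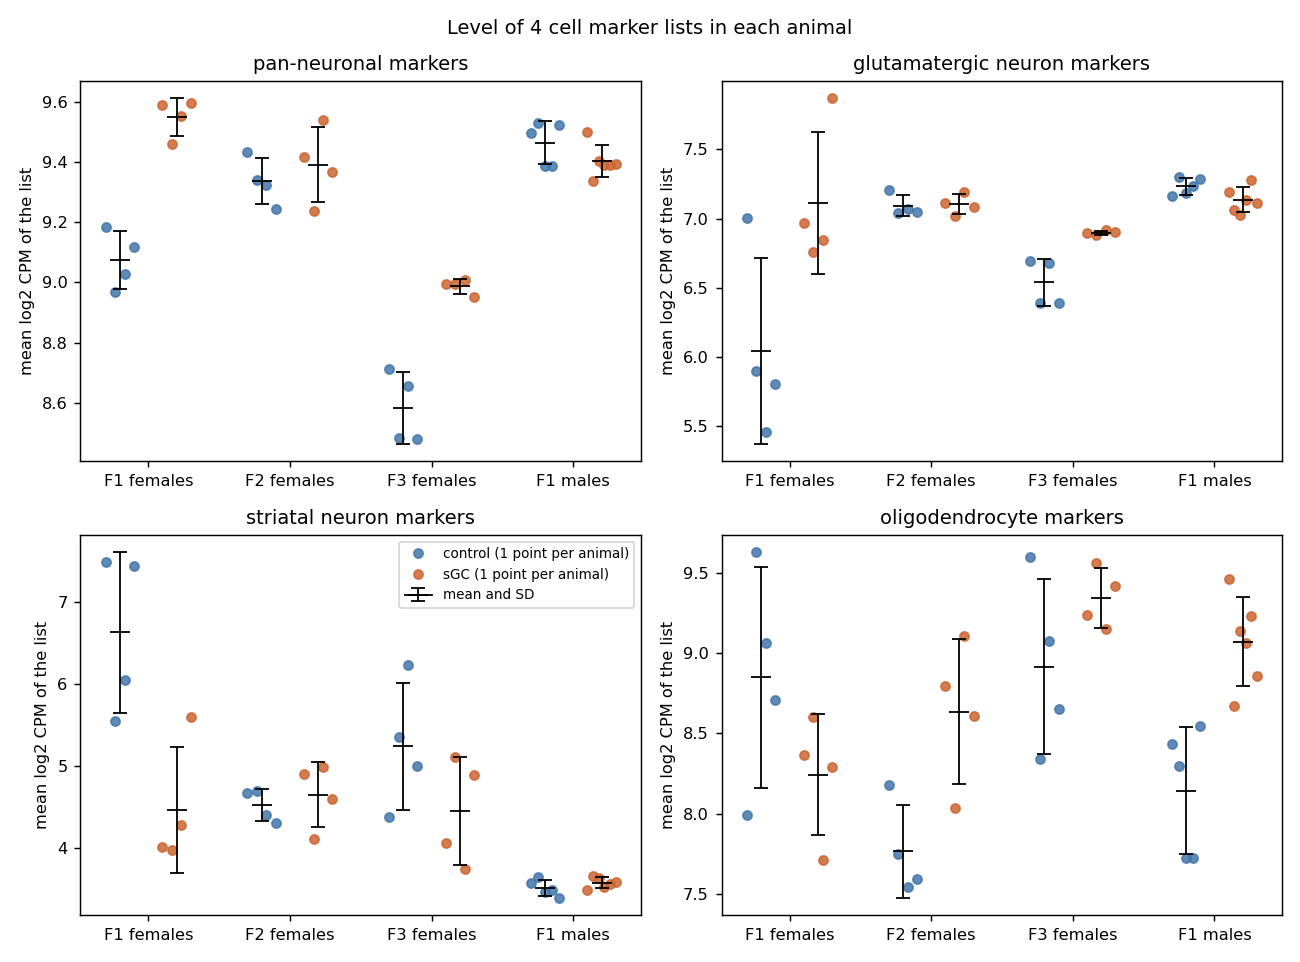
Mean log2 CPM of the pan-neuronal, glutamatergic, striatal and oligodendrocyte marker lists. Each point is 1 animal, blue for control and orange for sGC, with black bars for the mean and SD, and the vertical axes do not start at 0. Pan-neuronal levels of sGC animals lie above all controls in F1 and F3 females and overlap with controls in F2 females and F1 males, and oligodendrocyte levels of sGC males lie above all control males.

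Each member was therefore also expressed relative to the pan-neuronal mean of the same library, as the difference of log2 CPM. On this scale NRIP3 was higher in F2 sGC females by 0.79, B3GALT2 by 0.40 and GARNL3 by 0.35, each with all 4 sGC females above all 4 controls (exact two-sided permutation test, unadjusted p = 0.0286, the smallest that 4 against 4 animals can give). Relative to the pan-neuronal mean, 3.27% of 11117 genes had all F2 sGC females above all F2 controls. ATP6AP1L was lower in F2 sGC females by -0.42 (exact permutation p = 0.0571), with 3 of 4 below all controls. In F3 females, where the pan-neuronal level itself differed, the relative differences were 0.73 for NRIP3 (exact permutation p = 0.0571), 0.40 for B3GALT2 (p = 0.114, exact), 0.22 for GARNL3 (p = 0.314, exact) and 0.10 for ATP6AP1L (p = 0.514, exact). In F1 males the relative differences of NRIP3, B3GALT2, GARNL3 and ATP6AP1L were 0.27, -0.06, 0.15 and -0.18 (exact permutation p = 0.216, 0.636, 0.0952 and 0.0346), and all sGC males were above all control males for none of the 4 and for 7.04% of 11509 genes. Without control animal 1 NRIP3 and GARNL3 passed in males (0.46 and 0.19, exact permutation p = 0.00952 and 0.0381), and ATP6AP1L lost its p under 0.05 without control animal 2, 3 or 4 or sGC animal 1 or 3 (exact permutation p of 0.0635 to 0.0762). In F3 females the same held for none of the 4 and for 0.377% of 11404 genes. These were 12 tests and their p-values are not adjusted. In F1 females, without a test, the relative differences were 0.51 for B3GALT2, 0.31 for GARNL3, 0.59 for NRIP3 and 0.57 for ATP6AP1L, and NRIP3 was the member with all sGC females above all controls, a pattern of 0.338% of 11253 genes. Relative to the glutamatergic mean, whose list had a median log2 fold change of 1.48 in F1 females, all 4 differences turned negative there, at -0.0884, -0.28, -0.000803 and -0.0276.

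With the pan-neuronal mean as a covariate in the edgeR fit, the F2 estimates kept their sign and were somewhat smaller in size. B3GALT2 was at 0.38 (95% interval 0.18 to 0.57) and GARNL3 at 0.35 (0.17 to 0.53), from 0.47 and 0.41 without it. NRIP3 was at 0.69 (0.51 to 0.88), from 0.86, and ATP6AP1L at -0.35 (-0.55 to -0.14), from -0.37. Of the 4 genes NRIP3 alone passed there (FDR = 0.00368). In F3 females all 4 changed sign, to -0.49 for B3GALT2 (-1.20 to 0.22), -0.78 for GARNL3 (-1.16 to -0.40), -0.16 for NRIP3 (-1.17 to 0.86) and -0.06 for ATP6AP1L (-0.96 to 0.83), and none passed (FDR of 0.222 to 0.978). In F1 females ATP6AP1L changed sign, to -0.66 (-1.99 to 0.66), and B3GALT2, GARNL3 and NRIP3 were at 1.51 (0.35 to 2.67), 1.00 (0.22 to 1.78) and 0.56 (-0.96 to 2.09). The covariate and the treatment were nearly the same variable in those 2 tables, with a correlation of 0.96 in F1 and 0.94 in F3 females against 0.29 in F2 females and -0.48 in F1 males, so their parts cannot be told apart there.

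Within groups, where treatment is constant, B3GALT2, GARNL3 and NRIP3 were higher in animals with a higher pan-neuronal mean. Over the deviations of all 35 animals from their group means, Pearson's r was 0.61 for NRIP3 (permutation p = 0.00148, Spearman's rho 0.59, permutation p = 0.00297), 0.59 for GARNL3 (p = 0.00622, rho 0.56, p = 0.00833), 0.45 for B3GALT2 (p = 0.0440, rho 0.45, p = 0.0387) and 0.29 for ATP6AP1L (p = 0.164, rho 0.27, p = 0.174). These are 4 relations with unadjusted two-sided p-values. In a limma fit over 10710 genes, in which 3.53% were positively related to the pan-neuronal mean at an FDR under 0.05, NRIP3 and GARNL3 passed (FDR = 0.0149 and 0.0206) and B3GALT2 and ATP6AP1L did not (FDR = 0.111 and 0.369). Without the 2 animals farthest from the median score, r was 0.54, 0.58, 0.39 and 0.43 for NRIP3, GARNL3, B3GALT2 and ATP6AP1L, and that of B3GALT2 no longer passed (permutation p = 0.111), although its size changed little.

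The relation was positive in all 4 tables for NRIP3 and differed in sign between tables for the other 3 genes, a description over 8 to 11 animals each, and the differences were not tested. For B3GALT2 r was -0.36 in F1 females, 0.79 in F2 females, 0.85 in F3 females and 0.42 in F1 males. For GARNL3 it was -0.24, 0.66, 0.97 and 0.73, and for NRIP3 0.28, 0.93, 0.72 and 0.50. For ATP6AP1L it was 0.70, -0.32, 0.47 and -0.27. Without the F1 females, which left 27 animals, r was 0.67 for B3GALT2, 0.77 for GARNL3, 0.69 for NRIP3 and 0.06 for ATP6AP1L. The members also followed other marker lists over the 35 animals. The r with the oligodendrocyte mean was 0.66 for B3GALT2, 0.70 for GARNL3 and 0.55 for NRIP3 and -0.46 for ATP6AP1L. Without the F1 females it was 0.65, 0.80, 0.77 and -0.21 in the same order. With the GABAergic mean r was -0.46 for B3GALT2, -0.50 for GARNL3, -0.21 for NRIP3 and 0.49 for ATP6AP1L, and with the endothelial mean it was -0.42, -0.60, -0.19 and 0.01. The r with the glutamatergic mean was 0.73 for ATP6AP1L (rho 0.46), and 0.28 without the F1 females, against 0.15, 0.32 and 0.43 for B3GALT2, GARNL3 and NRIP3.

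**Figure D4:**
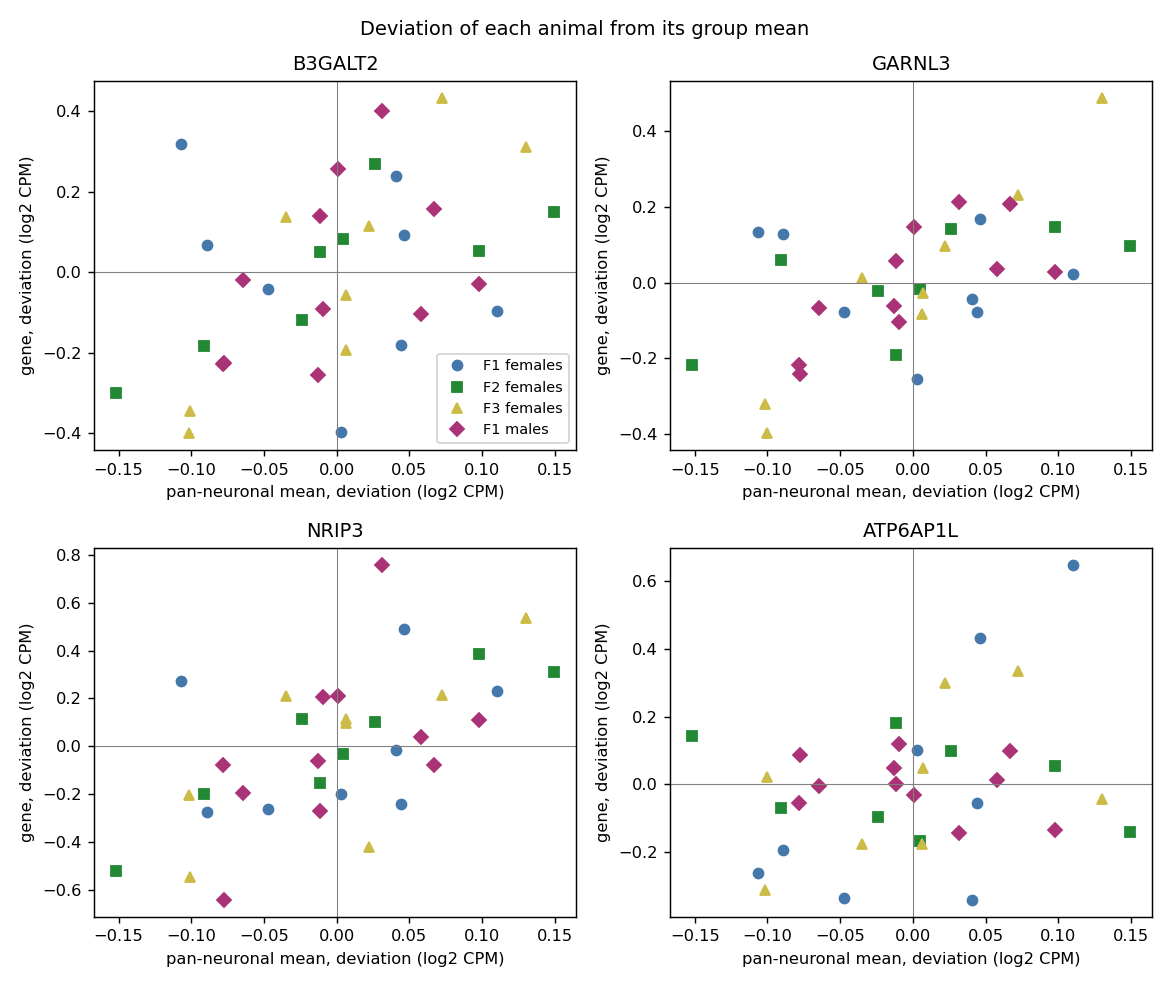
Deviation of each of 35 animals from the mean of its group, for the pan-neuronal mean (horizontal) and each gene (vertical), both in log2 CPM, with a symbol and colour for each table. Points of GARNL3 and NRIP3 run from lower left to upper right (r of 0.59 and 0.61), and F1 female points of B3GALT2 and GARNL3 do not follow the others.

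B3GALT2, GARNL3 and NRIP3 also followed each other within groups. Over the 35 animals r was 0.81 between B3GALT2 and GARNL3, 0.67 between GARNL3 and NRIP3 and 0.60 between B3GALT2 and NRIP3, and in each table the B3GALT2 and GARNL3 pair had an r of 0.58 to 0.90. ATP6AP1L had an r of -0.03, 0.11 and 0.04 with B3GALT2, GARNL3 and NRIP3. Among 10724 other genes tested in all 4 tables, where the median r was -0.00 or -0.01 for every member, GARNL3 ranked 7 in likeness to B3GALT2, and B3GALT2 ranked 10 in likeness to GARNL3. The deviations share a library and its scaling, so these values are descriptions.

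The 5 genes most like B3GALT2 were PDE1A, a calcium-dependent cyclic nucleotide phosphodiesterase (r = 0.89), CAMK2D, a calmodulin-dependent kinase (0.87), RASGRP1, an exchange factor for Ras (0.84), SH3GL3, an endophilin of vesicle endocytosis (0.82), and HTR1A, a serotonin receptor (0.81). For GARNL3 they were CTXN3 (0.90), PDE1A (0.89), the lipid-binding OSBPL10 (0.88), the deubiquitinase USP35 (0.86) and the kainate receptor subunit GRIK3 (0.86). For NRIP3 they were the complement receptor C5AR1 (0.80), CCDC80 (0.79), RELL1 (0.78), PCYT1B of phosphatidylcholine synthesis (0.78) and AIRE (0.77). For ATP6AP1L they were ASPM, a mitotic spindle protein (0.81), the desmosomal PKP1 (0.79), the transcription factor MEF2C (0.79), the mitotic kinesin KIF15 (0.78) and SRGAP2, a GTPase-activating protein of neurite growth (0.77).

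The 4 genes were also set beside lists of genes from their own pathways. Of 22 galactosyltransferases and related enzymes of the B3GALT2 family and its neighbours, 17 were tested in F1 females, where B4GALT6, a lactosylceramide synthase, was called higher (log2 fold change 0.38) and none was called lower, and 2 were called without sGC animal 1 or 3. In F1 males 1 of 17 was called, B3GALNT1, lower with a log2 fold change of -0.24, and none without control animal 3 or 4 or sGC animal 3. The shares were 5.88% called higher in F1 females and 5.88% called lower in F1 males, beside 9.21% and 3.48% of all genes tested. No galactosyltransferase passed in F2 or F3 females with the quasi-likelihood test (of 15 and 17 tested, 2 and 4 had an unadjusted p under 0.05, and the likelihood ratio test called 0 and 1 and DESeq2 called 0 and 2). The median log2 fold change of the list was -0.09, 0.00, 0.02 and -0.06 in F1, F2 and F3 females and F1 males, whereas B3GALT2 was at 0.99, 0.47, 0.76 and -0.13.

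Of 28 Rap and Ral regulators beside GARNL3, 5 of 25 tested were called higher and 2 lower in F1 females, led by RAP1GAP2 (0.72), a GTPase-activating protein for Rap1, and RAPGEFL1 (0.66), which resembles the Rap exchange factors. The count of 7 was 3 or 4 without control animal 3 or 4 or sGC animal 1 or 3. In F2 females 1 of 24, the cyclic AMP-responsive exchange factor RAPGEF3, was called higher (0.49), and the count was 1 without control animal 1, 3 without sGC animal 2 and 0 without any other animal. In F1 males 3 of 25 were called higher, led by RAPGEF3 (0.55) and the Ral exchange factor RALGDS (0.30), and 3 were called lower, RAPGEFL1 (-0.21) among them. In F3 females none of 26 passed the quasi-likelihood test (8 had an unadjusted p under 0.05, and the likelihood ratio test and DESeq2 each called 3). Called higher were 20% in F1 females, 4.17% in F2 females and 12% in F1 males, beside 9.21%, 0.153% and 5.74% of all genes tested. Called lower were 8% in F1 females and 12% in F1 males, beside 7.33% and 3.48% of all genes tested. The medians of the list were 0.03, 0.00, -0.01 and -0.00 in F1, F2 and F3 females and F1 males.

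Of 19 nuclear receptors and coregulators set beside NRIP3, 2 of 17 were called higher in F1 females, 11.8% beside 9.21% of all genes tested. These were NRIP1, a corepressor of hormone receptors (0.32), and HSP90AA1, the chaperone of the glucocorticoid receptor (0.27), and the count was 5 without control animal 1 and 4 without sGC animal 2. In F2 females, F3 females and F1 males none of 17 passed the quasi-likelihood test, whereas 3, 1 and 4 had an unadjusted p under 0.05, while the likelihood ratio test called 2, 0 and 0 and DESeq2 called 2, 0 and 1. NRIP3, at 1.08, 0.86, 1.09 and 0.15, lay beyond the highest member of that list in the 3 female tables, where the highest was 0.33, 0.44 and 0.24.

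Among the 4 pathway lists the V-ATPase list had the most calls in F1 females. In F1 females 9 of 16 subunits tested were called higher and 2 lower, and the smallest p-values were those of ATP6V0D1 (0.36) and ATP6V1A (0.47), subunits of its membrane and catalytic sectors. These shares were 56.2% and 12.5%, beside 9.21% and 7.33% of all genes tested. The count of 11 fell to 3 without control animal 3, to 5 without sGC animal 1 and to 7 without control animal 2, control animal 4 or sGC animal 3. In F3 females 1 of 17, ATP6V0D1 (0.25), was called higher, a call lost in 7 of 8 fits (all but the one without control animal 1, which called 2), and in F1 males ATP6V0A2 (0.24) was called higher and ATP6V1A (-0.22) lower, and the count of 2 was 1 without control animal 1, control animal 3 or sGC animal 4. The shares were 5.88% called higher in F3 females, and 5.88% higher and 5.88% lower in F1 males. Beside these stood 1.07%, 5.74% and 3.48% of all genes tested. In F2 females none of 16 had an unadjusted p under 0.05 or passed by any of the 3 tests. ATP6AP1L had log2 fold changes of 1.01, -0.37, 0.50 and -0.24 in F1, F2 and F3 females and F1 males, beside list medians of 0.22, -0.02, 0.13 and -0.02.

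**Figure D5:**
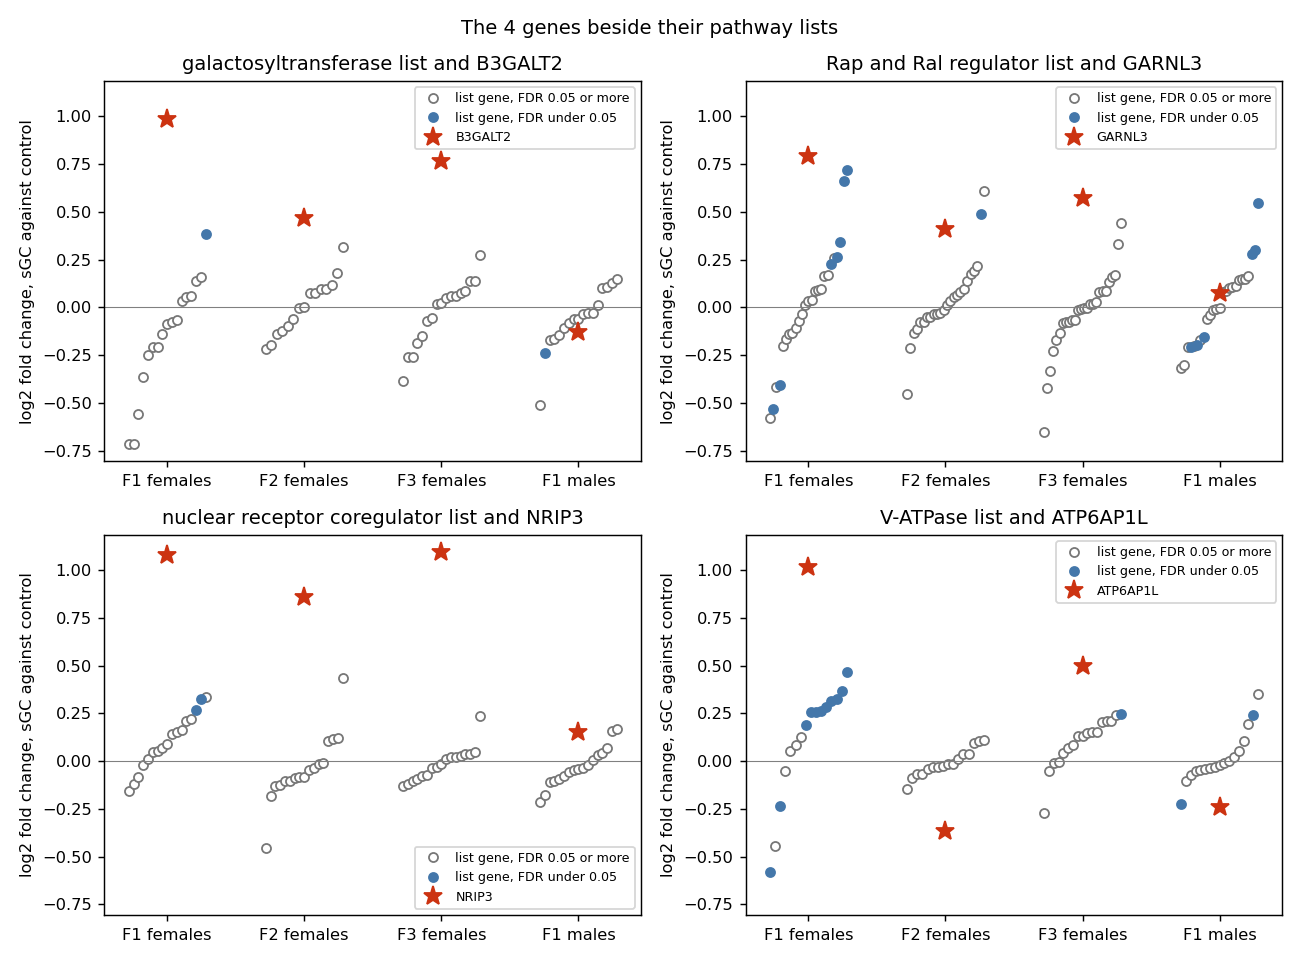
Log2 fold change of sGC against control animals in each table for the genes of 4 lists, ordered by value, with filled circles for an FDR under 0.05 and open circles for the rest. Stars mark B3GALT2, GARNL3, NRIP3 and ATP6AP1L, which lie at or beyond the edge of their lists in F1 females and F3 females and, except for GARNL3, in F2 females.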

How the data were processed

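The authors sequenced 1 library per animal from punches of the medial prefrontal cortex (mPFC) and deposited 4 tables of counts, with 1 line for each gene symbol and 1 column for each animal, as whole numbers not yet normalized. The submitters' processing notes name TopHat2 and edgeR, without versions. The read counter, genome build, annotation and use of strand are not given in the sources used here. Deposited columns of the authors' own edgeR comparison (log fold changes, mean levels, statistics and p-values) were not used.

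From the counts, genes were kept with filterByExpr (minimum count 10, minimum total count 15), libraries were scaled by TMM, and sGC was compared with control within each table by edgeR's quasi-likelihood test (edgeR 4.0.16, limma 3.58.1, R 4.3.3), with Benjamini-Hochberg adjustment over all genes tested and an FDR threshold of 0.05. Interactions used genes of both tables. Log2 CPM used a prior count of 2. Permutation tests used 100000 resamples, within groups, or were exact (scipy 1.17.1). Alternatives were the likelihood ratio test, DESeq2 1.42.0, other scalings and filters, a replicate block, a single fit, a pan-neuronal covariate and the omission of each animal. Scripts were tested on simulated data. Each library is labelled as a separate animal.

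The 4 genes, the 15 marker and pathway lists and the tests were chosen with earlier results of these data known. Named genes were the 4 genes, defining markers, at most 2 genes of a pathway list with the smallest p in a table among those under the threshold, and the 5 genes most like each of the 4 within groups. RAPGEFL1 in males and PVALB were added after their values were seen. Replicate numbers recur across groups, but the correlations of same-numbered animals ran from -0.33 to 0.34 and did not all exceed 0.1 in any table, so the numbers were not taken as pairs. Levels were not compared between genes, since gene lengths were not used here. RefSeq gene records (mCavPor4.1) matched 3 of the 4 symbols, and none matched ATP6AP1L.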

Additional observations from a re-analysis of the deposited data

Results flagged for a closer look

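Of 32 sets of animals of 1 gene and 1 group, 1 held an animal far from the others, where chance gives such an animal in about 1 set in 20. It was F2 control animal 4 for B3GALT2, at 66.9 CPM against 78.6 to 80.3 CPM in the other 3 controls, on the side away from the sGC females.

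The response to sGC differed between F3 females and F1 males for B3GALT2 (interaction of -0.91 on the log2 scale, edgeR FDR = 0.0228) and for ATP6AP1L (-0.76, FDR = 0.00559). These groups differ in generation as well as in sex, depth and library naming. ATP6AP1L had all sGC animals above all controls in F1 females and all below all controls in F2 females, a difference of -1.38 between the log2 fold changes. That difference was not tested, because the F1 females had picked the gene.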

How the results depend on the processing

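Outside the omission of single animals, 259 of 308 recomputed values of the 4 genes were counted as unchanged. Tested values had to keep their direction and their side of the threshold. Values of F1 females, which have no test, had to keep their direction and move by less than the SD within groups. The values that changed follow, and the cause of each was not tested unless it is given. In F2 females the likelihood ratio test gave 0.47, 0.41, 0.86 and -0.37 and DESeq2 0.47, 0.41, 0.85 and -0.37 for B3GALT2, GARNL3, NRIP3 and ATP6AP1L, and all of these passed. NRIP3 also passed there with library totals as the scale (0.84) and with the pan-neuronal covariate (0.69). In F3 females B3GALT2, GARNL3 and ATP6AP1L passed with the likelihood ratio test (0.77, 0.58 and 0.50) and with DESeq2 (0.77, 0.58 and 0.50), B3GALT2 and GARNL3 passed in the single fit of all groups (0.78 and 0.59), and NRIP3 was lost with no filter on low counts (1.09, FDR = 0.05002). The pan-neuronal covariate turned all 4 in F3 females, to -0.49, -0.78, -0.16 and -0.064, turned ATP6AP1L in F1 females to -0.66 and moved B3GALT2, GARNL3 and NRIP3 there to 1.51, 1.00 and 0.56. ATP6AP1L in F1 males was lost in the single fit (-0.24). Its difference between F2 and F3 females passed with the likelihood ratio test (0.87) and DESeq2 (0.88), and the NRIP3 difference between F3 females and F1 males passed with the likelihood ratio test (-0.96). With the replicate number as a block, NRIP3 in F3 females was lost (1.13, FDR = 0.0886), ATP6AP1L in F3 females passed (0.50, FDR = 0.0394), as did its difference between F2 and F3 females (0.87, FDR = 0.0422), and no other call of the 4 genes changed. The block moved the genes called from 1864 to 1080 in F1, 31 to 53 in F2 and 153 to 67 in F3 females and from 1062 to 999 in F1 males.

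The within-group relation of B3GALT2 to the neuronal marker level was lost with the glutamatergic list (r = 0.15), with library totals (0.38), without the 2 farthest animals (0.39), without F2 females (0.37), F3 females (0.28) or F1 males (0.46), and in limma (slope 1.37 per log2 unit, FDR = 0.111). That of GARNL3 was lost without F3 females (0.42), and that of ATP6AP1L passed with the glutamatergic list (0.73). Relative to the glutamatergic instead of the pan-neuronal mean, all 4 genes turned in F1 females, to -0.0884, -0.28, -0.000803 and -0.0276, ATP6AP1L passed in F2 females (-0.38) and it was lost in F1 males (-0.14).

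With single animals left out, the F2 changes ran from 0.37 to 0.56 for B3GALT2, 0.35 to 0.48 for GARNL3, 0.74 to 1.00 for NRIP3 and -0.42 to -0.31 for ATP6AP1L, and the F3 changes from 0.64 to 0.92, 0.45 to 0.76 and 0.94 to 1.30 for the first 3. The differences between F3 females and F1 males ran from -1.06 to -0.79 for B3GALT2, -0.71 to -0.39 for GARNL3 and -1.17 to -0.72 for NRIP3. Relative to the pan-neuronal mean, B3GALT2, GARNL3 and NRIP3 in F2 females ran from 0.32 to 0.45, 0.29 to 0.40 and 0.74 to 0.91, where 3 against 4 animals cannot give a p under 0.0571. In F1 males B3GALT2 ran from -0.11 to 0.0368 (0.0368 without control animal 1), GARNL3 from 0.11 to 0.19, NRIP3 from 0.13 to 0.46 and ATP6AP1L from -0.22 to -0.13. Genes called ran from 613 to 2115 in F1, 0 to 487 in F2 and 20 to 598 in F3 females and from 667 to 1613 in F1 males. All 4 genes had group means of 58.9 CPM or more in libraries of at least 12819964 counts, and groups held 4 to 6 animals.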
